A study of Mus musculus with 2 samples.

Results

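The respiratory chain genes described here encode the subunits of the proton-pumping complexes I, III and IV, of succinate dehydrogenase (complex II) and of ATP synthase (complex V). Members were taken by symbol alone, as protein-coding mouse genes whose names begin with Nduf followed by a, b, c, s or v and a digit, Cox4 to Cox8, Uqcr, Sdha to Sdhd, Atp5 or mt-. The rule took 98 genes of the annotation, and 97 of them are in the tables, out of 43346 gene identifiers and 21474 matched protein-coding genes. Of these, 84 are nuclear genes and 13 lie on the mitochondrial genome. The 1 gene of the rule with no row is a second identifier for Atp5o. The rule itself uses no measured value, although it was set with earlier results of these data known.

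The tissue was whole intestine of healthy B6NCrl mouse embryos at embryonic day 16.5, from which total RNA over 200 nt was sequenced in 2 libraries of 1 group. Both started from 10 ng of RNA and from pools of male and female embryos. Replicate 2 came from 41 embryos, and the sources used here do not give the number for replicate 1. The pools are labelled as separate biosamples that carry the same donor identifier. No genotype, treatment or second age was compared, so values are compared between genes, and between the libraries as a measure of error. Intestinal epithelium markers were detected in 6 of 6 cases and gut smooth muscle markers in 4 of 4. Pancreas markers were also detected in 3 of 3 cases, with a summed level of 2305 TPM in replicate 1 and 3218 TPM in replicate 2, beside 3604 and 3796 TPM for the epithelium markers. Their part in the levels of the members was not tested. The libraries held 42040766.14 and 41480300.79 expected counts, and the members took 3.79% of them in replicate 1 and 3.72% in replicate 2. Levels are given in TPM, a transcript abundance corrected for length and scaled to the same total in each library, as the values of replicates 1 and 2 or as mean ± SD (n = 2). Detection meant 1 TPM or more in each library. In a whole organ, fewer cells of a type and less RNA per cell cannot be told apart.

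The respiratory chain sits in the inner mitochondrial membrane. Complexes I and II pass electrons to ubiquinone, complex III hands them to cytochrome c, and complex IV delivers them to oxygen. Complexes I, III and IV move protons outward, and ATP synthase lets them return to drive ATP synthesis. Most subunits are encoded in the nucleus and imported, whereas a small set of hydrophobic core subunits is encoded and translated inside mitochondria. Fragments of mitochondrial DNA have also been copied into nuclear chromosomes during evolution, and processed copies of nuclear subunit genes are scattered over the genome, so that a read can match a gene and a pseudogene equally well. The enterocytes that line the gut use this chain to power nutrient uptake.

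Nearly the whole chain was expressed, and at a high level. Of the nuclear members, 80 of 84 (95.2%) were detected, against 62% of all protein-coding genes, and all 13 mitochondrial members were detected. At least 100 TPM in both libraries was reached by 73 of 84 nuclear members (86.9%) and 12 of 13 mitochondrial members, against 7.47% of protein-coding genes. The nuclear members together took 4.56% of all TPM in replicate 1 and 4.55% in replicate 2. The mitochondrial members took 2.99% in replicate 1 and 2.96% in replicate 2. The median nuclear member stood at 402 ± 11.0 TPM and the median mitochondrial member at 1609 ± 58.4 TPM, whereas the median detected protein-coding gene stood at 17.1 ± 0.156 TPM. Among the 100 most abundant protein-coding genes, 16 were members, and 70 were among the top 500. Nuclear members are short, with a median transcript length of 669 bases against 2075 bases for protein-coding genes. Across the 80 detected nuclear members, Spearman's rho between length and TPM was -0.3 in each library, beside -0.37 and -0.35 across 13311 detected protein-coding genes. These are correlations across genes, which share a library and are not independent replicates.

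**Figure D1:**
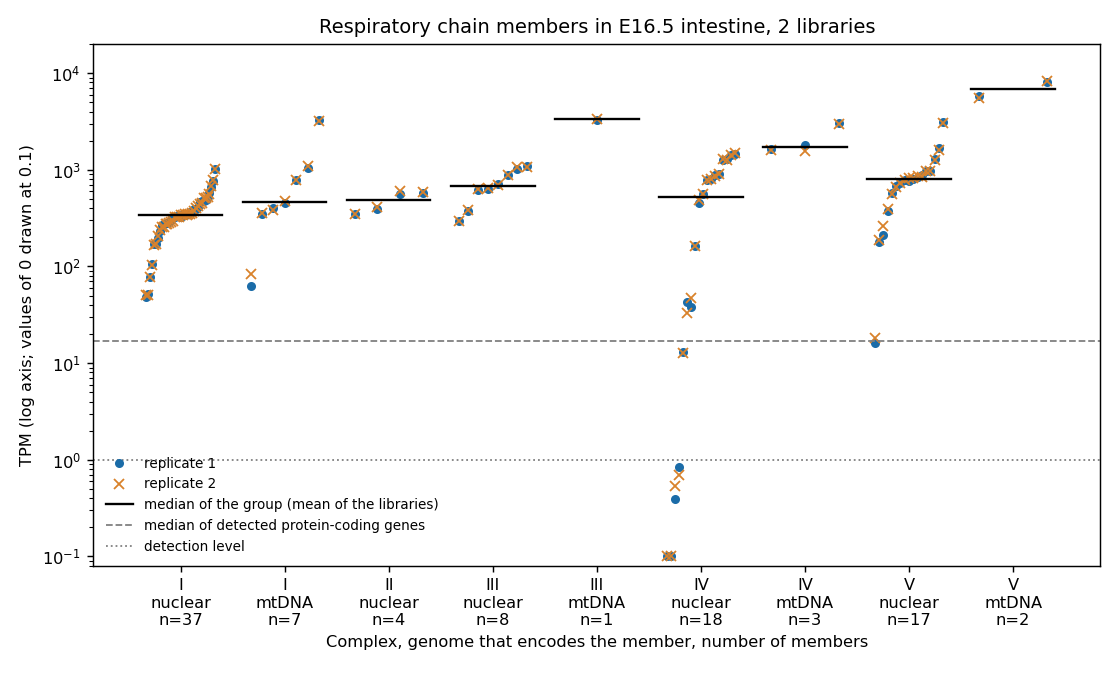
Level of each of the 97 members in replicate 1 (blue points) and replicate 2 (orange crosses), in TPM on a log axis, grouped by complex and by the genome that encodes the member. Black bars are group medians, the dashed line is the median of detected protein-coding genes (17.1 TPM) and the dotted line is 1 TPM. Only nuclear members of complex IV fall under the dotted line, and mitochondrial medians stand above the nuclear medians of the same complex.

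The mitochondrial genes differed widely from each other in the deposited tables. ATP synthase subunit a, mt-Atp6 (mm10 mitochondrial genome), was the highest of all members at 7997 and 8212 TPM in replicates 1 and 2. The adjoining mt-Atp8, which encodes a small membrane subunit of the same enzyme, had 5800.1 and 5569.9 TPM. Cytochrome b, mt-Cytb, the only subunit of complex III encoded in mitochondria, had 3260.2 and 3373 TPM. These 3 genes varied little between libraries, and mt-Atp8 stood at 0.725 and 0.678 of mt-Atp6. In complex I, mt-Nd1 was at 3243 and 3177 TPM, mt-Nd4 at 1047 and 1088, mt-Nd2 at 788 in both, and mt-Nd5, the longest, at 351 and 356. The sole member read from the other strand of the circle, mt-Nd6, was at 453 and 473 TPM. The remaining complex I genes were mt-Nd3 at 404 and 379 TPM and mt-Nd4l, the lowest, at 62.2 and 84.1 TPM. In complex IV, whose catalytic core is made of the products of mt-Co1, mt-Co2 and mt-Co3, the values were 3047 and 2950.4 TPM for mt-Co1, 1821 and 1568 for mt-Co2, and 1651 and 1582 for mt-Co3. The mitochondrial ribosomal RNAs, which are not members, were at 946 and 929.5 TPM for the small one and 3090.0 and 3059.7 TPM for the large one. How library preparation affected ribosomal RNA was not examined, so these values are not set against those of the members.

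Reads were also assigned to nuclear copies of some of these genes. A run of 7 annotated pseudogenes on chromosome 1 (mm10 chr1:24611535-24616197) holds near-identical copies of mt-Co1, mt-Co2, mt-Atp6, mt-Co3, mt-Nd3, mt-Nd4l and mt-Nd4. A copy is listed here when at least 90% of its windows of 100 bases occur, letter for letter and on the same strand, in a member's transcripts. The window matches the read length implied by the tables, in which effective length is the length minus 99. Of the 685 windows of mt-Co3, 684 (99.9%) occur in its copy Gm28437. One such stretch is identical in both, and a read from it matches both places equally.
mt-Co3 (chrM:8948-9047, plus strand) and Gm28437: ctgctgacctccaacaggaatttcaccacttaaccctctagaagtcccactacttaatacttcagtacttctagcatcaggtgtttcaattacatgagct

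The copy of mt-Co1, Gm29216, is shorter and carries differences at one end. Over its 492 bases it differs from mt-Co1 at 6 positions, all within the stretch shown here, where capitals mark the differing bases.
mt-Co1 (chrM:6381-6460, plus strand): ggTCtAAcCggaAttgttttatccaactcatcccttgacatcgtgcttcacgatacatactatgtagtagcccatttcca
Gm29216 (chr1:24616118-24616197, minus strand): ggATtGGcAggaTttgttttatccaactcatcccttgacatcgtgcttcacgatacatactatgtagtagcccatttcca

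The copies held 294421 expected counts in replicate 1 and 292887 in replicate 2. Counts on Gm28437 were 184104 in replicate 1 and 180467 in replicate 2, against 33264 and 30967 on mt-Co3 itself, so that the copy took 84.7% and 85.4% of their sum. The copy's share was 89.7% and 85.8% for mt-Nd4l, 73.9% and 76.6% for mt-Nd3, and 65.3% and 71.6% for mt-Co2. It was 19.0% and 19.6% for mt-Co1, 6.45% and 3.50% for mt-Atp6, and 0.02% in both libraries for mt-Nd4, although 60.8% of the windows of mt-Nd4 occur in its copy Gm28439. The splits differed between mt-Atp6 and mt-Co2, although both have 99.5% of their windows in a copy. Whether any of these reads came from chromosome 1 was not tested, and the 2 sources cannot be told apart in windows that are identical.

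**Figure D2:**
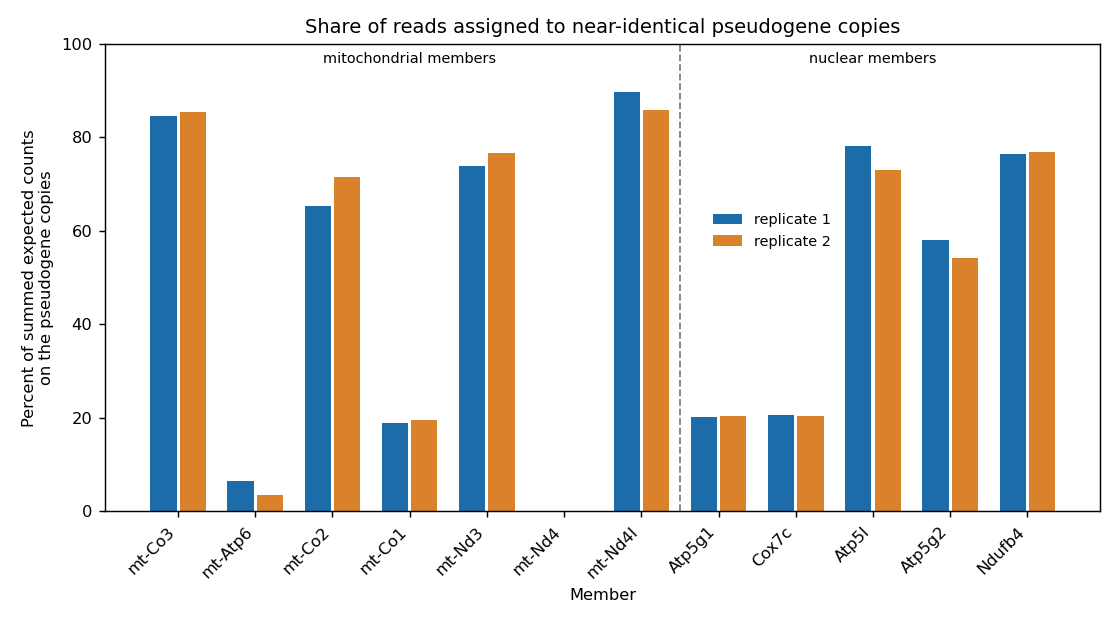
Percent of the summed expected counts of a member and its near-identical pseudogene copies that the tables place on the copies, in replicate 1 (blue) and replicate 2 (orange). Shares run from 0.02% for mt-Nd4 to 89.7% for mt-Nd4l in replicate 1, with mitochondrial members left of the dashed line and nuclear members right of it.

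When the counts of a gene and its copy were added and divided by the gene's effective length, mt-Co3 became the highest mitochondrial member, at 10786 and 10804 TPM. In the same way mt-Co2 reached 5246 and 5521 TPM, mt-Co1 3761 and 3669, mt-Nd3 1548 and 1619, and mt-Nd4l 604 and 594. The order of the complex IV genes turned round, since mt-Co3 was 0.542 and 0.536 of mt-Co1 by itself and 2.87 and 2.94 of it with copies. The excess of mt-Nd4 over mt-Nd4l, which share a transcript in mammals, was 16.8-fold and 12.9-fold by itself and 1.73-fold and 1.83-fold with copies. The mitochondrial members then took 4.54% and 4.55% of TPM, close to the 4.72% and 4.71% of the nuclear members with their own copies. The deposited posterior means, an alternative estimate in the same tables, also placed mt-Co3 higher, at 3915 and 3794 TPM, with deposited intervals from 1083 to 8605 and from 1225 to 8034. For mt-Nd1, which has no such copy, the interval ran only from 3158 to 3202 in replicate 1. The level of these intervals is not stated in the files.

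**Figure D3:**
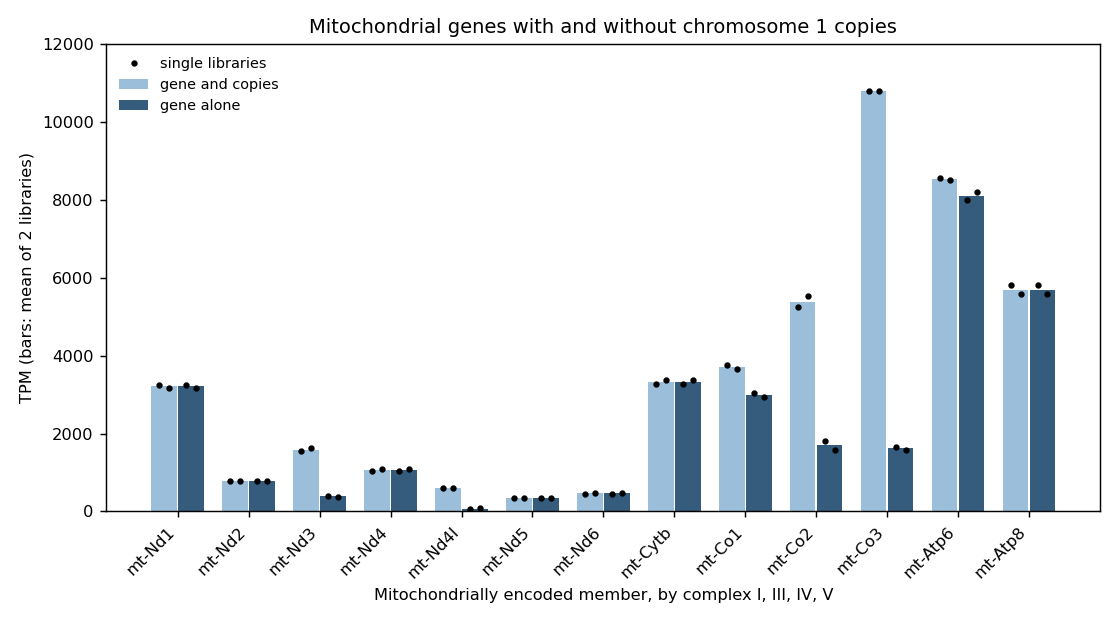
Level of the 13 mitochondrially encoded members in TPM on a linear axis, with the counts of their chromosome 1 copies added (light bars) and alone (dark bars). Bars are means of the 2 libraries and points are the single libraries. With copies added mt-Co3 stands at 10795 TPM, against 1616 TPM alone, while mt-Nd1, mt-Nd2, mt-Nd5, mt-Nd6, mt-Cytb and mt-Atp8 have no copy and keep their values.

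Complex I, NADH dehydrogenase, was the most even of the large groups. Its 37 nuclear members were all detected with a median of 336 TPM in replicate 1 and 339 TPM in replicate 2, and 30 of them lay within 2-fold of that median. Ndufa4 led with 1013 and 1020.0 TPM. It is grouped here by symbol, although its product is found in complex IV. Counting it and Ndufa4l2 there left both medians as they were but made Ndufc1 the highest complex I member. Next came Ndufc1, a small membrane-arm subunit, at 774 and 777 TPM, and Ndufb9, another membrane-arm subunit, at 662 and 680.4 TPM. The lowest was Ndufb4, a membrane-arm subunit, at 48.5 and 50.3 TPM. The 7 nuclear core subunits, which include the carriers of the flavin and the iron-sulphur clusters, had a median of 278 ± 6.30 TPM, from Ndufs1 at 172 TPM to Ndufs7 at 521 TPM. The other 30 members had a median of 343 ± 3.73 TPM. Along the order of levels, 17 of 36 neighbouring pairs overlapped between libraries, so the order in the middle of the group is not resolved. The processed copy of Ndufb4, Ndufb4c (mm10 chr15:73809507-73809896), held 76.6% and 76.8% of the counts summed over both. With the copy Ndufb4 reached 207 and 217 TPM, rank 31 of 37. The part of read assignment in its low place was not tested. The following 100 bases, in the spliced Ndufb4 transcript from base 240, are identical in the copy.
Ndufb4 (gene at chr16:37647170-37654453, minus strand) and Ndufb4c: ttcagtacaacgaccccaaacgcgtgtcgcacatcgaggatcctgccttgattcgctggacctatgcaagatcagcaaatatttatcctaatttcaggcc

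Complex II, the only complex with no mitochondrially encoded subunit, had its 4 genes within 1.67-fold of each other. Sdhb, the iron-sulphur subunit, was at 573 and 587 TPM, and the membrane anchor Sdhd was at 562 and 597 TPM. The other anchor Sdhc had 388 and 416 TPM, and the catalytic flavoprotein Sdha had 349.8 and 345 TPM. Sdhb and Sdhd overlapped between libraries, whereas Sdhc and Sdha did not.

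Complex III had a median of 672 ± 4.05 TPM over 8 nuclear members, and all 8 exceeded 100 TPM. The small subunits stood highest, with Uqcr10 at 1083 and 1074 TPM, Uqcr11 at 1007 and 1068 TPM, and Uqcrq at 878 and 881 TPM. The core protein Uqcrc1 had 624 and 638 TPM. The Rieske iron-sulphur protein gene Uqcrfs1, at 371 and 380.2 TPM, and the core protein Uqcrc2, at 294 and 293 TPM, were the lowest.

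Complex V had the highest median TPM over all nuclear members of a complex, at 794 ± 26.9 TPM for 17 members. Atp5b, the catalytic beta subunit, was the highest nuclear member of the chain at 3087 and 3031 TPM. Atp5g3, one of 3 genes for the same c-ring protein, followed at 1664 and 1600 TPM, and Atp5a1, the alpha subunit, at 1288 and 1265 TPM. Alpha and beta enter the enzyme in equal numbers, and Atp5b exceeded Atp5a1 2.40-fold in gene TPM in each library. Gene TPM sums all annotated transcripts. Those annotated as protein-coding held 71.7% and 72.0% of Atp5b, and 90.5% and 91.2% of Atp5a1. The 5 genes of the F1 head had a median of 853 ± 13.8 TPM, down to the epsilon subunit Atp5e at 671 TPM. Atp5s (coupling factor B), a regulatory protein rather than a core subunit, was the lowest at 16.0 and 18.3 TPM. Atp5l, subunit g of the membrane part, was at 213 and 261 TPM and higher in replicate 2. Its processed copy Gm10221 (mm10 chr5:24581554-24581862) held 78.2% and 73.1% of the summed counts, and with the copy Atp5l reached 974 and 972 TPM, rank 5 of 17. The stretch below, from base 186 of the spliced transcript, is shared without a difference.
Atp5l (gene at chr9:44912557-44920742, minus strand) and Gm10221: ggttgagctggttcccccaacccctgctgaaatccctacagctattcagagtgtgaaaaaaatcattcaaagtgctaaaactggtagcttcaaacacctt

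Over all nuclear members and in TPM, the medians ran from complex I at 338 TPM through complex II at 488, complex IV at 517 and complex III at 672 to complex V at 794 TPM. Complexes II and IV were the closest neighbours, at 475 and 502 TPM for complex II and 510 and 524 TPM for complex IV, and their library ranges did not overlap. This order depended on the members and the scale. Among detected members alone complex IV had a median of 795 TPM, and in counts scaled by depth without division by length complex II was highest at 457, above 341 for complex V, 257 for complex III, 229.7 for complex IV and 142 for complex I.

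Complex IV, cytochrome c oxidase, held every undetected member. It is also the complex with the most tissue-specific isoforms. The isoforms of most tissues dominated: Cox4i1 had 1462 and 1483 TPM, Cox6b1 had 1423 and 1433 TPM, and Cox8a had 1302 and 1265 TPM. Cox6a1, at 1249 and 1279 TPM, followed closely. The 18 nuclear members had a median of 517 ± 9.86 TPM, and the 14 detected ones spanned 115-fold. Of 12 pairs of isoforms or close relatives, 11 were at least 2-fold apart in both libraries in the same direction. The pairs are not independent, since Cox7a2, Cox8a and the Atp5g genes recur among them. How often other gene pairs lie this far apart was not computed. Log2 differences of pairs are on the scale of log2(TPM + 0.1).

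Cox4i2, an isoform known from lung and from pericytes and induced by low oxygen, had 13.0 and 12.7 TPM and was the lowest detected member of complex IV. Cox4i1 exceeded it by log2 6.83 ± 0.05, or 114-fold. Of 6 pericyte markers, 5 were detected, and the median over all 6 was 8.54 and 8.82 TPM. Their part in the level of Cox4i2 was not tested.

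Cox6a2 and Cox8b, heart and skeletal muscle isoforms, and Cox7a1, their counterpart for the Cox7a subunit, differed from each other. Cox6a2 had 0.85 and 0.69 TPM, from 14 and 11 counts, against which Cox6a1 stood 1470-fold (95% counting interval 875 to 2684) and 1854-fold (1038 to 3721) higher. Cox8b had 3 and 4 counts, and Cox8a exceeded it 3338-fold (1149 to 16282) in replicate 1 and 2386-fold (928 to 8719) in replicate 2. These intervals cover counting error only. Cox7a1 was detected, at 38.1 and 46.6 TPM, and Cox7a2 exceeded it by log2 3.73 ± 0.22, or 13.3-fold. Of 8 skeletal muscle markers, 5 were detected, led by Mylpf at 15.5 and 13.1 TPM with Myod1 at 0.04 and 0.10 TPM, and their summed level was 40.2 and 45.3 TPM. Of 5 heart muscle markers, 2 were detected, mainly Myl7 at 75.5 and 64.2 TPM, with Nppa at 0.44 and 0.18 TPM and Myh6 at 0.05 and 0.14 TPM. What part these markers' cells have in Cox7a1 was not tested.

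The isoforms known from testis were split. Cox7b2 and Cox8c had 0 counts in both libraries, so a floor of 3 counts was set in their place. Against that floor, Cox7b was 1981-fold and 2071-fold higher than Cox7b2, and Cox8a 4813-fold and 4541-fold higher than Cox8c. The lower ends of the 95% counting intervals were 1611-fold and 1685-fold for Cox7b over Cox7b2. For Cox8a over Cox8c they were 3914-fold and 3693-fold. Cox6b2, also named for testis, was detected at 43.3 and 32.6 TPM, and Cox6b1 exceeded it by log2 5.24 ± 0.30, or 37.9-fold. None of 4 germ cell markers was detected, the highest value being 0.38 TPM for Prm1 in replicate 2.

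Cox7a2l, a relative of Cox7a2, had 161 and 162 TPM, and Cox7a2 exceeded it by log2 1.79 ± 0.02. Ndufa4l2, a relative of Ndufa4 that is induced by low oxygen, had 51.2 and 51.1 TPM, and Ndufa4 exceeded it by log2 4.31 ± 0.009, or 19.8-fold. Among the c-ring genes, which differ mainly in their import signal, Atp5g3 gave 58.9% and 57.8% of their summed TPM, Atp5g1 34.7% and 35.4%, and Atp5g2 6.39% and 6.77%. Atp5g3 over Atp5g1 was the pair under 2-fold, at log2 0.73 ± 0.04. Copies bear on this family too. Gm10175 held 58.0% and 54.2% of the counts summed with Atp5g2, while a second copy, Gm10231, had 0. Gm10039 held 20.2% and 20.4% of those summed with Atp5g1. With copies, Atp5g1 over Atp5g2 was log2 1.55, against 2.41 without, and Atp5g3 over Atp5g2 was log2 1.96, against 3.15 without. The same held for Cox7c, a complex IV subunit with no isoform pair, of which the copy Gm12338 held 20.7% and 20.4%.

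**Figure D4:**
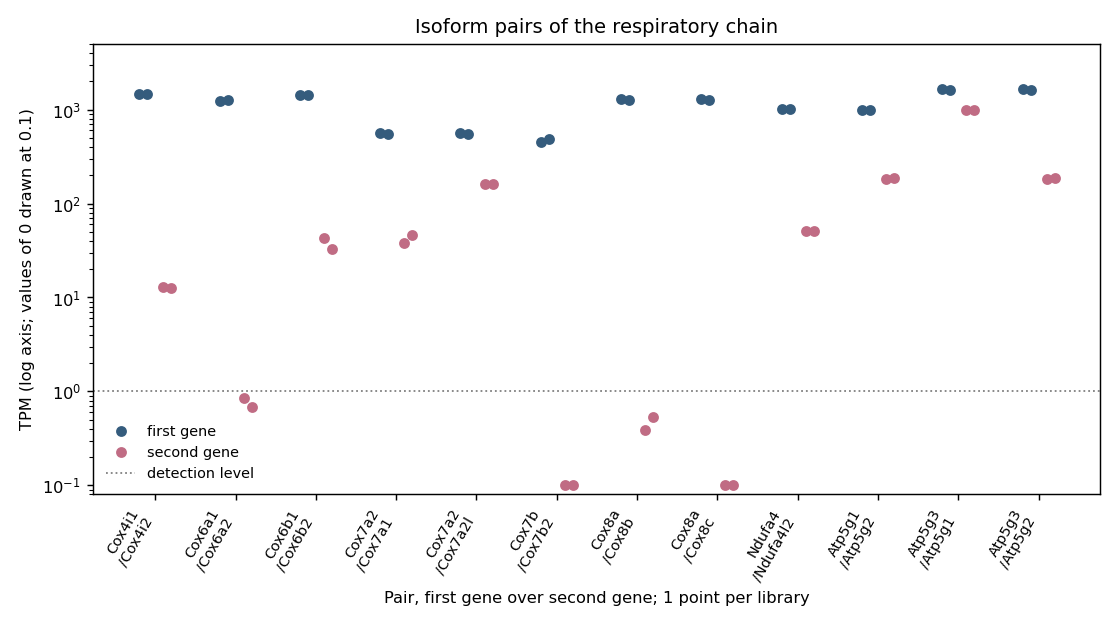
TPM on a log axis of the first gene (blue) and the second gene (pink) of the 12 pairs, with 1 point per library and values of 0 drawn at 0.1. In 11 pairs the first gene stands at least 2-fold above the second in both libraries, from Cox8a over Cox8c down to Cox7a2 over Cox7a2l, and Atp5g3 over Atp5g1 is the exception.

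Within each complex that has subunits from both genomes, the median mitochondrial gene was above the median nuclear gene. The difference was log2 0.45 ± 0.03 in complex I, 2.30 ± 0.04 in complex III, 1.72 ± 0.17 in complex IV and 3.12 ± 0.05 in complex V. These are differences of levels per length, and they rest on 7, 1, 3 and 2 mitochondrial genes in that order of complexes. With copies added, complex I reached log2 1.22 and complex IV log2 3.38, whereas complexes III and V stayed at 2.30 and 3.13. The mitochondrial median of complex IV was then 5384 ± 195 TPM, against 1702 ± 169 TPM without copies.

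The libraries agreed closely on the members. The ratio of replicate 1 over replicate 2 was taken as log2(TPM + 0.1), centred on expressed protein-coding genes by removing 0.015. For genes with a mean of at least 100 counts, the median was -0.01 over 80 nuclear members and -0.02 over 13 mitochondrial members. The libraries were at least 25% apart for 1 of 80 nuclear members and 1 of 13 mitochondrial members, beside 10.9% of protein-coding genes. Less than 1.1-fold separated the libraries for 76 of 80 nuclear members (95%) and 11 of 13 mitochondrial members, against 58.1% of protein-coding genes. The members are deeply sequenced, and among protein-coding non-members with at least the count of the nuclear members' 10th percentile, 6.62% were at least 25% apart and 65% were within 1.1-fold.

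All 37 nuclear members of complex I, all 4 of complex II and all 8 of complex III lay within 1.1-fold. Cox6b2 was the farthest toward replicate 1, at log2 0.39, followed by mt-Co2 at 0.20. Toward replicate 2, mt-Nd4l was at -0.45, Atp5l at -0.31 and Cox7a1 at -0.31. With the copies' counts added, the uncentred log2 ratios were 0.03 for mt-Nd4l and 0.00 for Atp5l. For mt-Co2 the ratio became -0.07. The part of the division of reads in these gaps was not tested. Cox6b2 and Cox7a1 have no listed copy and few reads, with 506 and 375 counts for Cox6b2 and 297 and 353 counts for Cox7a1. Markers of enterocytes, by comparison, were higher in replicate 2 in 4 of 4 cases, each at least 25% apart with a median of -0.59, and those of red blood cells were higher in replicate 1, with a median of 0.30.

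**Figure D5:**
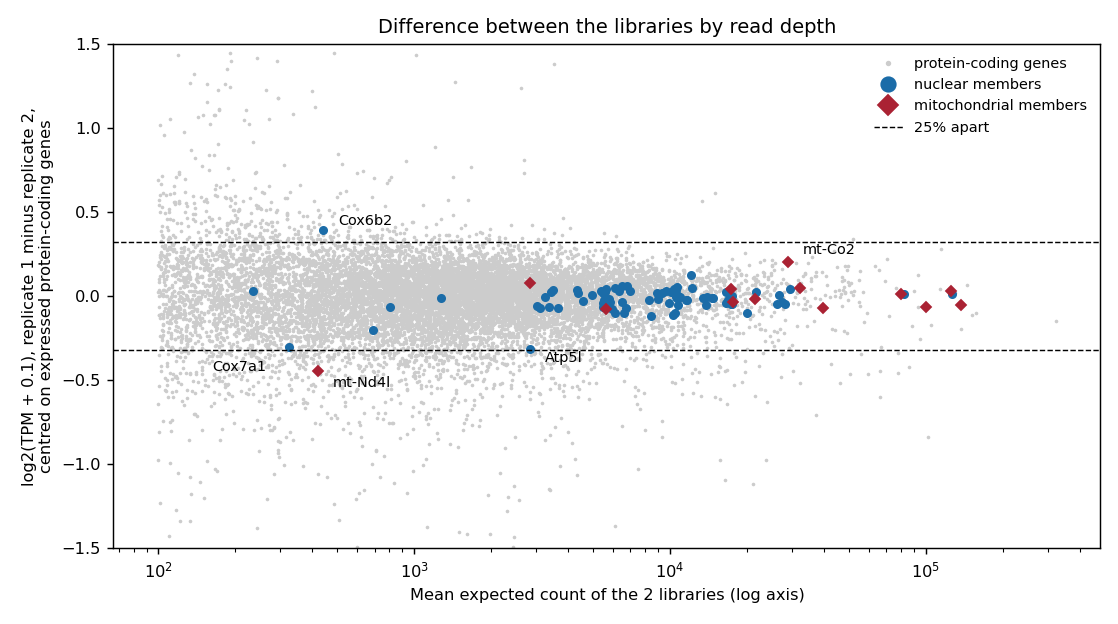
Centred difference in log2(TPM + 0.1), replicate 1 minus replicate 2, against the mean expected count on a log axis, for 12885 protein-coding genes (grey), nuclear members (blue) and mitochondrial members (red diamonds). Dashed lines mark a difference of 25%, and 28 genes outside the plotted range are not shown. Members lie near 0 except Cox6b2 above the band and mt-Nd4l below it.

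Most members were dominated by the same transcript in both libraries. Of 56 members with more than 1 annotated transcript and a mean TPM of at least 1, 55 had the same major transcript, against 92% of such protein-coding genes. In 49 of the 56 the major transcript was annotated as protein-coding in both libraries, against 89.2%, and in 30 it took at least 90% of the gene, against 26.5%. The exceptions are shares of a gene's TPM as the authors estimated them. For Atp5f1, the peripheral stalk subunit b, a transcript annotated as a target of nonsense-mediated decay, Atp5f1-203, held 67.3% and 67.1%. A retained-intron transcript, Atp5j-208, held 71.4% and 70.1% of Atp5j, another stalk subunit. For Ndufa5, of the peripheral arm of complex I, the processed transcript Ndufa5-204 held 93.2% and 94.5%. Cox5b-205 held 57.5% and 56.5% of Cox5b, a matrix-side subunit of complex IV, and Ndufa10-204 held 29.8% and 32.6% of Ndufa10, a matrix-side subunit of complex I. A retained-intron transcript held 62.0% and 59.7% of Ndufb4, whose coding sequence is shared with its copy. Cox6b2 alone changed its leading transcript, which held 22.3% in replicate 1 and 21.8% in replicate 2. The sources used here do not say whether the libraries kept strand, so reads of Atp5f1 and Wdr77, Atp5j and Gabpa, Ndufb5 and Mrpl47, Ndufb6 and Smim27, Ndufa13 and Tssk6, or Uqcrc2 and Pdzd9, which overlap on opposite strands, may not be separable.

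The nuclear members are spread over all autosomes but chromosome 14, with 3 on the X chromosome (Ndufa1, Ndufb11 and Cox7b). A minority had a close neighbour on the other strand. For 19 of 84 nuclear members (22.6%), another protein-coding gene started within 1000 bases upstream in the opposite direction, against 6.75% of protein-coding nuclear genes. The level of the neighbour varied: Rps28, beside Ndufa7 at a distance of 10 bases, had 766 and 716 TPM, and Timm8b, beside Sdhd, had 249 and 263 TPM. Asb15, beside Ndufa5, was at 0 TPM in both libraries.

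Core promoters were read for 68 of the 84 nuclear members, from 250 bases before to 50 after the RefSeq start on GRCm38.p6, and searched on both strands for letters bound by factors known to act on respiratory genes. The full NRF1 palindrome, in capitals in the Cox6a1 promoter shown at the end, was in 5 promoters (7.35%), those of Atp5g2, Atp5k, Cox6a1, Ndufa11 and Uqcrc1, against 1.07% of 27025 promoters and 2.21% of those of 10414 detected genes. Its shorter core GCGCATG, which every palindrome also holds, was in 13 (19.1%), against 4.41% and 7.59%. The YY1 letters AAGATGGCG were in 7 (10.3%), against 1.64% and 3.4%. The GABPA core CCGGAAG was in 16 (23.5%), against 9.93% of all promoters and 19.3% of those of detected genes, and the ERR-alpha letters TCAAGGTCA in 2 (2.94%), against 0.466% and 0.298%. At least 1 of these 5 was found in 30 (44.1%), against 15.1% and 27.7%. A match describes the letters only. The promoter of Cox6a1, the dominant isoform of its pair, is shown with its NRF1 palindrome and its GABPA core (here on the other strand) in capitals, and that of Ndufs7, the highest nuclear core subunit of complex I, with its YY1 letters in capitals.
Cox6a1 (chr5:115348909-115349208, minus strand): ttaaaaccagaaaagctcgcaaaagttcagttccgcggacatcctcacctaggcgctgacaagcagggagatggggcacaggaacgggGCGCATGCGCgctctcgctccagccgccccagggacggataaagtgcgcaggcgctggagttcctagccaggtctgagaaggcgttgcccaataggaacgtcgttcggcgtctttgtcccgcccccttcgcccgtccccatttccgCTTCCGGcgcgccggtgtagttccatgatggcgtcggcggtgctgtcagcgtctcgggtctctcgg
Ndufs7 (chr10:80249199-80249498, plus strand): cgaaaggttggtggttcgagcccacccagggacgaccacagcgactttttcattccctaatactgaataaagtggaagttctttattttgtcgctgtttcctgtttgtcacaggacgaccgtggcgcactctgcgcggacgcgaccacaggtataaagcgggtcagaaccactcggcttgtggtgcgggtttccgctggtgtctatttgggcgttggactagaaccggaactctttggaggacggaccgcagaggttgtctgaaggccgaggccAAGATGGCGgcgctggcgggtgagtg

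Genes that serve the chain without matching the naming rule were also expressed, at lower levels except for further subunits. Of 11 other subunits and carriers in the tables, 10 were detected, and the median over all 11 was 299 ± 4.18 TPM. They were led by the ATP synthase subunit Usmg5 at 1430.3 and 1451 TPM, the ATP synthase inhibitor Atpif1 at 1179 and 1148 TPM and the acyl carrier Ndufab1 at 849 and 837 TPM. Cyct, the cytochrome c of testis, was at 0 in both libraries. Assembly factors were far lower than the subunits they help to build. All 17 factors for complex I were detected with a median of 36.4 ± 0.559 TPM, from Ndufaf8 at 96.5 and 101 TPM, Dmac1 at 98.0 and 91.1 TPM and Ndufaf4 at 47.6 and 42.7 TPM down to Nubpl, which inserts iron-sulphur clusters, at 9.35 and 9.09 TPM. The 4 factors for complex II had a median of 18.7 ± 0.994 TPM, with Sdhaf4 at 54.1 and 52.0, Sdhaf2 at 27.0 and 24.5, Sdhaf1 at 11.7 and 11.4 and Sdhaf3 at 5.13 and 4.63 TPM. The 6 for complex III had 35.3 ± 0.438 TPM, with Uqcc2 at 218 and 203, Uqcc1 at 77.9 and 70.9, Uqcc3 at 51.3 and 51.6 and Lyrm7 lowest at 8.70 and 10.4 TPM.

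For complex IV, 22 of 23 assembly factors were detected, and the median over all 23 was 47.1 ± 2.05 TPM. Coa3 led at 238 and 219.9 TPM, followed by Cox14 at 216 and 213 TPM and the copper chaperone Cox17 at 191 and 212 TPM. Pet117, at 0.64 and 3.06 TPM, missed the detection level in replicate 1. The 4 factors for ATP synthase had a median of 72.0 ± 2.08 TPM, with Fmc1 at 139 and 136, Tmem70 at 79.7 and 79.8, Atpaf2 at 67.3 and 61.4 and Atpaf1 at 44.3 and 40.5 TPM. No factor in these 5 lists with at least 100 counts was 25% apart between libraries.

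Regulators and RNA-handling factors were detected at moderate levels. Of 12 transcription regulators of the chain, 11 were detected, and the median over all 12 was 17.3 ± 0.562 TPM. The nuclear receptor Esrra had 33.6 and 38.7 TPM, Nrf1 had 36.5 and 31.7 TPM, and Ppara had 26.3 and 31.8 TPM, with Esrrb lowest at 0.33 and 0.30. All 20 factors of mitochondrial transcription and RNA handling were detected, with a median of 24.9 ± 2.01 TPM. The RNA-stabilising protein Slirp led at 223 and 219 TPM, its partner Lrpprc had 46.6 and 47.4 TPM, the mitochondrial transcription factor Tfam had 65.2 and 60.1 TPM, and Mterf1a was lowest at 6.45 and 5.68 TPM.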

How the data were processed

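For each of the 2 libraries there were tables by gene and by transcript. The authors deposited expected counts, which divide shared reads between features and need not be whole, and TPM values, which scale counts per effective length to the same total in each library, spike-ins included, per the file headers. They also deposited posterior mean TPM with interval bounds, and percent values for the share of a gene that each transcript holds. The build was mm10 with annotation M4, per the text deposited beside the files, and the sources used here do not give the aligner or quantifier. Library preparation kept RNA over 200 nt, per the labels.

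Symbols, gene types and coordinates came from GENCODE M21 on the same build, by Ensembl identifier (42462 of 43346 matched, 98%). Copies were found from M21 transcript sequences, which are held for 101510 of 103639 transcripts of the tables, 91424 at the same length, and counts of copies were added as an alternative. In all, 25 members share at least 1 window with another gene on the same strand. Promoters came from RefSeq on GRCm38.p6. A pair was called apart at 2-fold in both libraries. With 1 group of 2 libraries no test was made. There was no second group, and the smallest p that a sign-flip test can reach with 2 libraries is 0.5. Computation used Python 3.11.15, pandas 2.3.3, edgeR 4.0.16 and DESeq2 1.42.0, the last 2 for scaling factors on expected counts rounded to whole numbers. The ratio rule was run on simulated counts with planted folds and a chosen spread, which checks the calculation and not the error of these libraries. Named genes are all mitochondrial members, the 3 highest and the lowest detected of each complex, pair genes, undetected members, the 3 farthest apart between libraries in each direction, members with an unusual major transcript, members with copies, and the 3 highest and the lowest of each further list. Uqcrc1, Uqcrfs1, Cox6a1, Atp5e, Ndufs1, Ndufs7 and the neighbouring genes were named after their values were seen. A gene that this rule takes in is not reported here. The members and lists were chosen with earlier results of these data known.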

Additional observations from a re-analysis of the deposited data

How the results depend on the processing

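No paired analysis was possible because the series holds 1 group only. In posterior mean TPM the shares of TPM were 4.47% (nuclear) and 3.15% (mitochondrial), the nuclear medians were 332 (complex I), 659 (III) and 506 (IV) TPM, and mitochondrial over nuclear subunits was log2 2.54 (IV) and 3.02 (V). In counts scaled by depth without division by length the shares were 2.34% and 1.48%, the medians were 142 (I), 457 (II), 257 (III), 229.7 (IV) and 341 (V), and the log2 values were 1.60 (I), 3.25 (III) and 2.46 (V). Shares of TPM were 4.73% and 3.09% without spike-ins, and 5.25% and 3.43% over protein-coding genes. Among detected members alone the complex IV median was 795 TPM and its log2 value 1.09. With near-identical copies added, an alternative chosen after seeing the data, the shares were 4.72% and 4.55%, and the log2 values 1.22 (I) and 3.38 (IV). Members at least 25% apart between libraries numbered 1 in posterior means, 1 with copies added and 0 at 1.5-fold. The other 80 alternative values of these summaries stayed within a set tolerance. It was the spread between libraries for levels and 1.5 times for counts. For median ratios between libraries it was a log2 SD over protein-coding genes of 0.261, which is wide beside those medians. Leaving out 1 library cannot move a level past that spread, so those values do not bear on stability. Among single members and pairs, 79 alternative values moved by more than the spread between libraries and 381 did not. Many of the 381 could not move. Values from 1 library alone were counted as not moving, and genes without copies keep their values when copies are added. No pair called apart turned direction. The order of complexes and of the complex IV mitochondrial genes did change with these settings. The nuclear median ratio between libraries lay between -0.02 and 0.00 on the log2 scale in every setting run. Levels of members with copies are limited by how shared reads were divided, and undetected members by a floor of 3 counts.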

Other observations

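Genes induced by low oxygen were detected in 10 of 10 cases, against 62% of all protein-coding genes. Their median was 56.7 TPM in replicate 1 and 52.1 TPM in replicate 2. The list holds the members Cox4i2 and Ndufa4l2, and Higd1a, which is also among the other subunits and carriers. The lactate dehydrogenase gene Ldha led at 2710 and 2602 TPM, followed by the mitophagy receptor Bnip3 at 166 and 164 TPM and the glucose transporter Slc2a1 at 146 and 138 TPM, and the angiogenic factor Vegfa was lowest at 2.33 and 2.85 TPM. None was 25% apart between libraries.

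Brown fat markers were not detected in 3 of 3 cases, with Ucp1 at 0 in both libraries, Cidea at 0.16 and 0.07 TPM, and the third being the complex IV member Cox8b. Pancreas markers were present, with Ctrb1 at 1610.3 and 2111 TPM, Cela2a at 389 and 759 TPM and Cpa1 at 306 and 348 TPM. Liver markers were lower, with Afp at 276 and 185 TPM, Alb at 90.4 and 34.2 TPM and Ttr at 89.4 and 88.0 TPM. The pancreas and liver lists each had 2 of 3 genes at least 25% apart between libraries, beside 1 of 80 nuclear respiratory chain members.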
